A study of Mus musculus with 8 samples.

Results

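The late cornified envelope (Lce) genes of groups 1 and 3 were followed over all 8 arrays of the series. The set was defined by 10 symbols: Lce1a1, Lce1b, Lce1c, Lce1d, Lce1f, Lce1g, Lce3a, Lce3b, Lce3c and Lce3f. A gene was counted where the platform annotation gave a probe set its symbol alone, which held for 8 of the 10 symbols, 4 Lce1 and 4 Lce3 genes, among 22180 genes measured. Lce1c and Lce1d have no probe set of their own, since each shares one with Lce1k, and they are described separately.

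Lce proteins are short proteins rich in cysteine, glycine and serine that transglutaminases cross-link late into the cornified envelope, the protein shell under the surface of the outermost keratinocytes. Their genes lie side by side in the epidermal differentiation complex. In human skin the group 1 genes are known as part of normal barrier formation, and the group 3 genes are known for being induced in psoriasis and after barrier injury.

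Imiquimod (IMQ), a Toll-like receptor agonist, gives mouse skin a psoriasis-like inflammation. Total RNA came from dorsal skin of male mice. The knockout (KO) arrays carry the strain label B6.Cg-Il22ra1tm1.1Koll/J, a targeted allele of the interleukin-22 receptor alpha chain, and the wild-type (WT) arrays the label C57BL/6. The KO arrays were KO_IMQ_Allo (imiquimod and alloferon, a peptide), KO_IMQ, KO_IMQ_B, KO_Allo (alloferon without imiquimod), KO_CTRL and KO_CTRL-B, and the WT arrays were WT_IMQ and WT_CTRL, with 1 array each. For imiquimod, 83.3 mg of a 5% cream was put on back and ears once a day, the first time on day 1 and the last on day 7. A cream with alloferon, or the vehicle alone, followed each dose by 6 hours. The series states 4 mice per group. The animals' age, whether an array holds 1 mouse or a pool, the meaning of the letter B, whether the KO allele is conditional and what the arrays without imiquimod received are not given in the sources used here.

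By the labels, each of the 4 imiquimod arrays has a partner of the same genotype, alloferon treatment and letter without imiquimod, which gives 4 pairs: 3 KO pairs, 1 of them with alloferon, and 1 WT pair. The medians of the 8 arrays lay within 0.05 on the log2 scale, and the lowest correlation between arrays over all probe sets was 0.96. The probe set of Il22ra1, the targeted gene, read 8.59 to 9.40 on the 6 KO arrays, against 8.64 on WT_IMQ and 8.23 on WT_CTRL. It was thus not lower on the arrays labelled KO, and whether it covers the altered part of the gene was not tested. Every direction between KO and WT rests on the labels. The number of arrays limits the precision of all values below.

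The sequences in front of the genes are shown first, since they set out what the members share before any expression value is read. Those of Lce3b, Lce1c and Lce1d are counted below but not shown, and Lce1f had none in the RefSeq set used. Each line gives the 120 bases before the annotated transcription start on the gene's own strand, from RefSeq on GRCm38.p6. Capitals mark the letters ATAAAA and, in the Lce1 genes, AGAGCCCAG.
Lce3f (chr3:92992097-92992216, + strand): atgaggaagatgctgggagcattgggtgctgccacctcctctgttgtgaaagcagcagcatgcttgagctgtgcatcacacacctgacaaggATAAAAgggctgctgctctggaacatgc
Lce3c (chr3:92944366-92944485, + strand): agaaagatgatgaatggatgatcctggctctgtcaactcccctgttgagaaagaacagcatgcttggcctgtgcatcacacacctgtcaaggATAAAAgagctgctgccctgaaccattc
Lce3a (chr3:92926231-92926350, - strand): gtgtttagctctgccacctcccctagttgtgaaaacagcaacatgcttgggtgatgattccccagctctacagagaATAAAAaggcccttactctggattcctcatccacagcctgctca
Lce1g (chr3:92752339-92752458, - strand): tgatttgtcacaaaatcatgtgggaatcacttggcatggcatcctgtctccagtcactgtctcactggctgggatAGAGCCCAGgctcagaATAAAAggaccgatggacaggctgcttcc
Lce1b (chr3:92656927-92657046, - strand): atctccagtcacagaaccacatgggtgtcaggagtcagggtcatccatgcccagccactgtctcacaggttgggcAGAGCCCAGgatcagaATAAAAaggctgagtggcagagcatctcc
Lce1a1 (chr3:92648308-92648427, - strand): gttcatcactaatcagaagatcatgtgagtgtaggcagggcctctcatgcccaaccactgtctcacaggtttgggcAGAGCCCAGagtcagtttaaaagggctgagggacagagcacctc

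Counted back from the start, ATAAAA, an A-rich TATA-type run, began at position -28 in Lce3f and Lce3c, -29 in Lce1g and Lce1b and -44 in Lce3a. Searched on the gene's strand from 50 to 20 bases before the start, it stood in 4 of 4 Lce3 members and 4 of the 5 Lce1 members with a promoter in the table, against 2.06% of all 32851 promoters. Both groups therefore carry it, and so did 6 of 6 Lce3 and 12 of 13 Lce1 promoters of the mouse cluster. AGAGCCCAG was the longest run, 9 bases, shared by the 5 Lce1 members, and began at position -45 or -44. It stood on the same strand in 6 of 13 Lce1 promoters, 0 of 6 Lce3 promoters and 0.481% of all promoters over 250 bases. The 6 include, by construction, the 5 members from which the run was taken. These 2 runs were picked after the sequences had been read, and the window from 50 to 20 bases was not planned either. Over 250 bases on the same strand, ATAAAA stood in 10.2% of all promoters. ATAAAA was also the longest run, 6 bases, shared by the 4 Lce3 members, so its count among them was not independent of the choice.

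Of 7 textbook motifs searched on both strands of the 250 bases, TGANTCA (the AP-1 motif) and AACNNGTT (the grainyhead motif) occurred in 0 of the 9 member promoters in the table. They occurred in 6.75% and 3.64% of all promoters. TTCNNNGAA (the STAT motif) also occurred in 0 of 9, against 7.02% of all. CACCC (the KLF motif) occurred in 2 of 4 Lce3 and 2 of 5 Lce1 members, against 52.0% of all, and CACGTG (the E-box) in Lce3a alone, against 6.02%. The NF-kB type motif (10 letters, 3 G, any 5 letters and 2 C) occurred in 1 of 4 Lce3 and 4 of 5 Lce1 members, against 45.8% of all. In the Lce1 genes shown above with a hit it overlaps the AGAGCCCAG run, and in Lce3f it overlaps the CACCC hit. TATAAA occurred in Lce1d alone, against 12.4% of all.

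The first comparison asks what imiquimod changed over the 4 pairs. Lce3f, Lce3a and Lce3c rose, by 19.9, 14.9 and 5.41 times, while of the Lce1 genes only Lce1g passed the test, with a rise of 2.61 times. All 8 genes read higher with imiquimod in 4 of 4 pairs, for which the share over all genes was not counted. As means over the pairs, the differences of the groups did not overlap. They were 1.69 to 4.31 log2 units for the Lce3 genes and 0.47 to 1.49 for the Lce1 genes. Without KO_IMQ or KO_CTRL they did overlap, with Lce3b at 1.19, below Lce1f at 1.31 and Lce1g at 1.41. In limma, 3 of 4 Lce3 and 1 of 4 Lce1 genes were called higher at an adjusted p under 0.05, where 1.9% of all genes were. With all 41345 probe sets tested singly, 0 of the 8 were called, with 8 at an unadjusted p under 0.05, as were 14.4% of all probe sets, and the smallest adjusted p was 0.0538, that of Lce3f. The number of calls over all genes depended on single pairs, and the members moved with it. Without WT_IMQ or WT_CTRL 0 of 8 members and 0 genes passed, and without KO_IMQ_B or KO_CTRL-B 0 of 8 and 2 genes. Without KO_IMQ or KO_CTRL 1 of 8 (Lce3f) and 260 genes passed, and without KO_IMQ_Allo or KO_Allo 5 of 8 and 1307 genes. With a trended robust prior Lce3a did not pass (adjusted p = 0.0586 in limma).

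The 4 Lce3 genes are described first. Lce3f read 8.16 on KO_IMQ_Allo, 8.98 on KO_IMQ, 8.03 on KO_IMQ_B and 8.09 on WT_IMQ, against 4.85 on KO_Allo, 3.23 on KO_CTRL, 3.96 on KO_CTRL-B and 3.97 on WT_CTRL. The arrays with and without imiquimod lay far apart, with KO_IMQ above the other imiquimod arrays, which lay close together. The effect was 4.31 ± 0.35 log2 units (SE over 4 pairs; adjusted p = 0.0124 in limma), the largest of the 8 genes.

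Lce3a read 7.63 on KO_IMQ_Allo, 9.26 on KO_IMQ, 8.58 on KO_IMQ_B and 7.92 on WT_IMQ, against 5.51 on KO_Allo, 4.41 on KO_CTRL, 3.27 on KO_CTRL-B and 4.60 on WT_CTRL. The groups did not overlap, but the arrays without imiquimod were spread over more than the 4 with it, and KO_CTRL-B was the lowest. The effect was 3.90 ± 0.49 log2 units (adjusted p = 0.0206 in limma), with pair differences from 2.13 (KO_Allo pair) to 5.31 (KO B pair). Human LCE3A is among the late envelope genes known to be high in psoriatic plaques.

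Lce3c read 8.62 on KO_IMQ_Allo, 9.64 on KO_IMQ, 9.04 on KO_IMQ_B and 8.74 on WT_IMQ, against 7.44 on KO_Allo, 6.80 on KO_CTRL, 6.10 on KO_CTRL-B and 5.95 on WT_CTRL. Again no array without imiquimod reached the lowest imiquimod array. The effect was 2.44 ± 0.29 log2 units (adjusted p = 0.0177 in limma).

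Lce3b was the exception within its group. It read 5.89 on KO_IMQ_Allo, 7.27 on KO_IMQ, 6.73 on KO_IMQ_B and 5.54 on WT_IMQ, against 4.60 on KO_Allo, 4.08 on KO_CTRL, 5.08 on KO_CTRL-B and 4.92 on WT_CTRL. The groups did not overlap, but WT_IMQ lay only 0.62 above WT_CTRL, while KO_IMQ lay 3.20 above KO_CTRL. The effect over the pairs was 1.69 ± 0.37 log2 units and did not pass (adjusted p = 0.0653 in limma).

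Among the Lce1 genes, Lce1g was the one called. It read 6.23 on KO_IMQ_Allo, 5.26 on KO_IMQ, 5.57 on KO_IMQ_B and 5.91 on WT_IMQ, against 5.18 on KO_Allo, 3.95 on KO_CTRL, 4.45 on KO_CTRL-B and 3.85 on WT_CTRL. The groups were separate by a narrow margin, KO_IMQ lying just above KO_Allo. The effect was 1.39 ± 0.18 log2 units (adjusted p = 0.0207 in limma).

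Lce1f read 10.48 on KO_IMQ_Allo, 9.80 on KO_IMQ, 9.93 on KO_IMQ_B and 9.89 on WT_IMQ, against 9.78 on KO_Allo, 7.78 on KO_CTRL, 9.09 on KO_CTRL-B and 7.52 on WT_CTRL. KO_Allo and KO_CTRL-B lay near the imiquimod arrays, and WT_CTRL and KO_CTRL lay well below them. The effect was 1.49 ± 0.29 log2 units, just short of a call (adjusted p = 0.0510 in limma).

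Lce1a1 read 5.22 on KO_IMQ_Allo, 4.08 on KO_IMQ, 4.22 on KO_IMQ_B and 4.48 on WT_IMQ, against 4.43 on KO_Allo, 3.18 on KO_CTRL, 3.97 on KO_CTRL-B and 3.07 on WT_CTRL. Lce1b read 8.48 on KO_IMQ_Allo, 7.81 on KO_IMQ, 8.19 on KO_IMQ_B and 8.18 on WT_IMQ, against 8.38 on KO_Allo, 7.43 on KO_CTRL, 7.92 on KO_CTRL-B and 7.05 on WT_CTRL. For both genes the KO_Allo array lay above at least 1 imiquimod array, so the groups overlapped. Their effects were 0.84 ± 0.18 log2 units for Lce1a1 (adjusted p = 0.0617 in limma) and 0.47 ± 0.17 for Lce1b (adjusted p = 0.211 in limma). Lce1a1 is dim: 15.5% of genes had a lower mean level, and RMA compresses differences of dim genes.

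**Figure D1:**
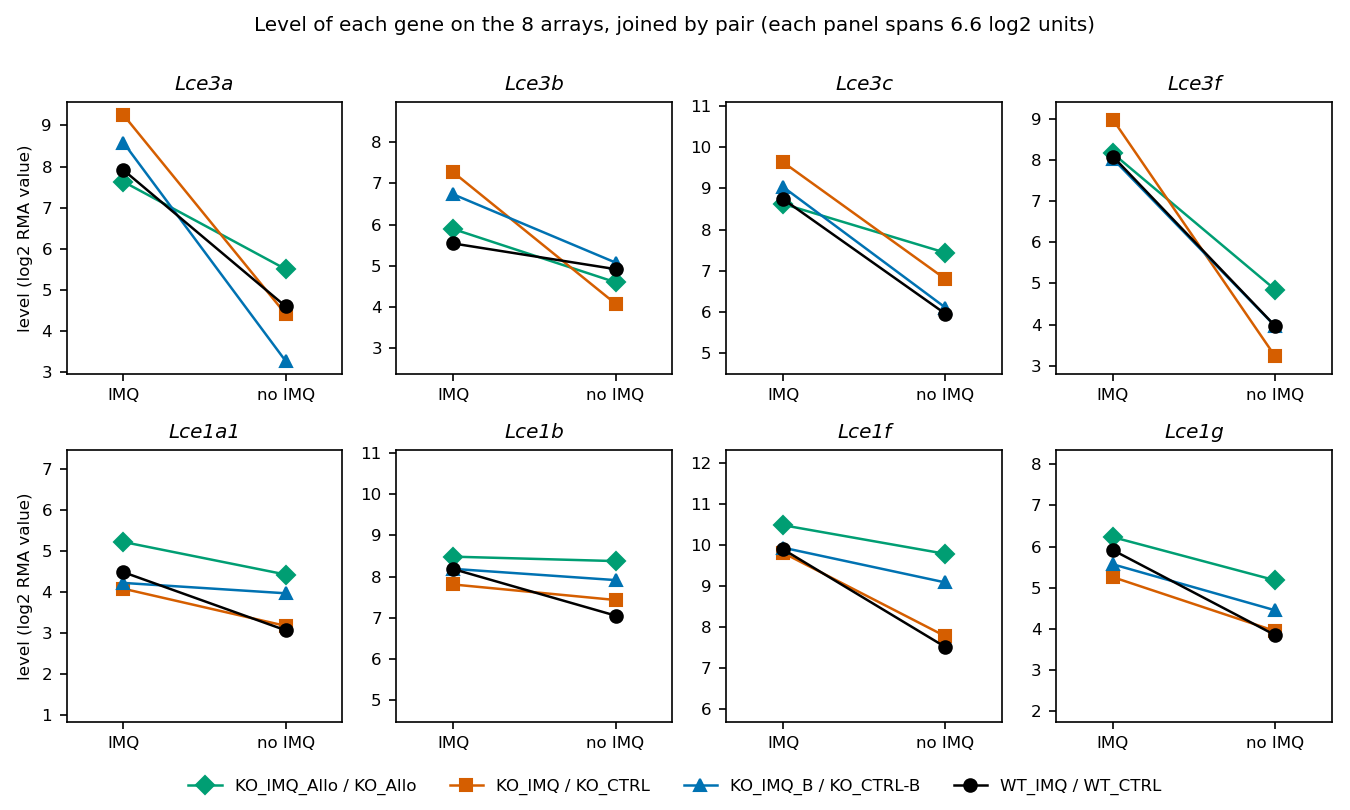
Level of each gene (log2 RMA value, vertical axis) on the imiquimod array and its partner without imiquimod, joined by pair, in 1 panel per gene; every panel spans the same number of log2 units. KO_IMQ is the highest point in each Lce3 panel and KO_IMQ_Allo in each Lce1 panel; pair differences run from 0.62 to 5.76 in the Lce3 panels and from 0.11 to 2.37 in the Lce1 panels.

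The 4 imiquimod arrays all lay above the 4 without it for 6 of the 8 genes (all 4 Lce3 genes, Lce1f and Lce1g), against 5.96% of all genes. With the alloferon arrays left out this held for 7 of 8, Lce1a1 being added, against 12.7% of all genes. Between single arrays of a pair, counting genes higher by 1 log2 unit (2-fold) or more, the KO_Allo pair had 4 of 4 Lce3 and 1 of 4 Lce1 genes, where 0.771% of all genes passed. The KO plain pair had 4 and 2 (2.69% of all genes), the KO B pair 4 and 1 (1.83%), and the WT pair 3 and 4 (2.5%).

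The contrast between the groups was then read pair by pair. The mean difference with imiquimod was 1.98 log2 units for the Lce3 genes and 0.66 for the Lce1 genes in the KO_Allo pair, 4.16 and 1.15 in the KO plain pair, 3.49 and 0.62 in the KO B pair and 2.71 and 1.75 in the WT pair. The Lce3 mean was higher than the Lce1 mean in 4 of 4 pairs, by 1.32, 3.004, 2.87 and 0.97 log2 units in the same order. The mean of these gaps was 2.04 ± 1.05 (SD, n = 4 pairs). In each of the 3 KO pairs the lowest Lce3 gene moved more than the highest Lce1 gene. In the WT pair the groups overlapped, since Lce3b moved by 0.62 there and the Lce1 genes by 1.13 to 2.37. No test was made of this gap, a score over chosen genes.

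**Figure D2:**
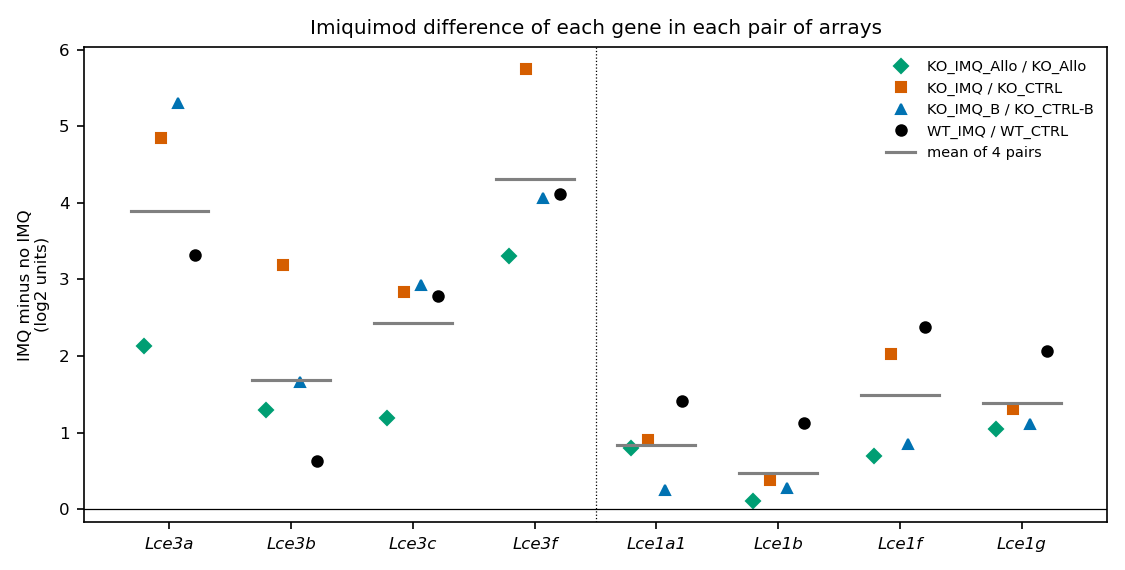
Difference between the imiquimod array and its partner (log2 units, vertical axis) for each gene; symbols are the 4 pairs and grey bars their mean. Lce3a, Lce3c and Lce3f lie at 1.19 or above in every pair, the Lce1 genes between 0.11 and 2.37, and the WT pair is the highest for each Lce1 gene.

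Which arrays were high differed between the groups. KO_IMQ was the highest array for 4 of 4 Lce3 members, and for both other Lce3 genes of the cluster, Lce3d and Lce3e. KO_IMQ_Allo was the highest for 4 of 4 Lce1 members, and for 7 of 7 other Lce1 genes with a probe set of their own. Among arrays without imiquimod KO_Allo was the highest for 4 of 4 Lce1 members and for 3 of 4 Lce3 members, the exception being Lce3b. WT_CTRL was the lowest of all arrays for 4 of 4 Lce1 members and for 4 of 7 other Lce1 genes, KO_CTRL being the lowest for Lce1e, Lce1i and Lce1k. The share of all genes that rank the arrays in these ways was not counted, so the ranks are not shown to be particular to Lce genes.

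Averaged over the 4 genes, the Lce1 level was 7.60 on KO_IMQ_Allo, 6.74 on KO_IMQ, 6.98 on KO_IMQ_B and 7.12 on WT_IMQ, against 6.94 on KO_Allo, 5.58 on KO_CTRL, 6.36 on KO_CTRL-B and 5.37 on WT_CTRL. KO_Allo thus lay above KO_IMQ. The Lce3 level was 7.58, 8.79, 8.10 and 7.57 on the imiquimod arrays in the same order, against 5.60, 4.63, 4.60 and 4.86 on their partners. All 4 partners lay below every imiquimod array.

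**Figure D3:**
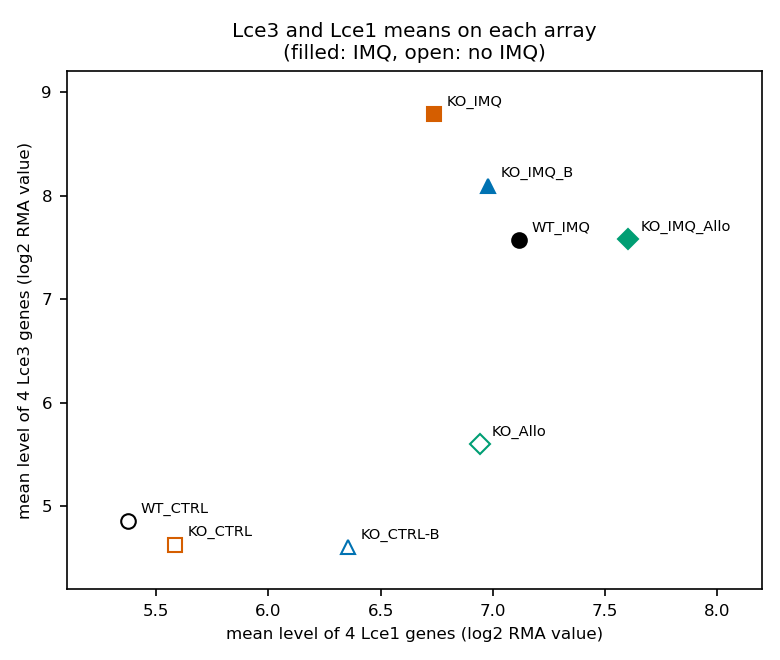
Mean level of the 4 Lce3 genes (vertical axis) against that of the 4 Lce1 genes (horizontal axis), both as log2 RMA values, 1 point per array, filled with imiquimod and open without. The Lce3 axis separates the imiquimod arrays (7.57 to 8.79) from the others (4.60 to 5.60), while on the Lce1 axis KO_Allo (6.94) lies among the imiquimod arrays (6.74 to 7.60).

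The tissue content of the arrays differed too. The median level of interfollicular keratinocyte markers (7 of 8 measured) was 12.10 on KO_IMQ_Allo, 12.41 on KO_IMQ, 12.46 on KO_IMQ_B and 12.22 on WT_IMQ, against 12.01 on KO_Allo, 10.97 on KO_CTRL, 11.23 on KO_CTRL-B and 10.96 on WT_CTRL. Their summed level was 81.2 to 82.7 with imiquimod and 77.6 to 81.4 without. By the median level KO_Allo, on which Lce1 genes were highest without imiquimod, was also the highest of these 4 for keratinocyte markers. In limma 1 of the 7 markers rose, and their median effect was 0.12 log2 units. Krt1 measured 0.91 and Dsc1 0.75, but Dsg1a -0.08 and Trp63 -0.18, so the array medians do not stand for every marker. Hair follicle markers (11 of 12 measured, of which 11 fell) had median levels of 5.04 to 8.45 with imiquimod and 8.28 to 10.91 without. Their summed levels were 57.3 to 96.2 and 89.3 to 118.9. With imiquimod the hair follicle median was 5.04 on KO_IMQ, 6.82 on WT_IMQ, 7.56 on KO_IMQ_Allo and 8.45 on KO_IMQ_B. Skeletal muscle markers (12 of 12 measured, of which 3 fell) had median levels of 7.998 to 9.08 with imiquimod and 8.61 to 11.15 without, the highest on KO_CTRL and WT_CTRL. Their summed levels were 97.0 to 106.2 and 104.2 to 131.6. Neutrophil markers (7 of 8 measured, of which 3 rose) had median levels of 5.68 to 6.63 and 4.66 to 5.42, and macrophage markers (6 of 6 measured, of which 3 rose) 8.82 to 9.55 and 8.05 to 8.61. Melanocyte markers (6 of 6 measured, of which 5 fell) had median levels of 6.37 to 7.01 with imiquimod and 6.87 to 8.67 without, and sebaceous gland markers (7 of 8 measured, of which 3 fell) 7.19 to 8.38 and 8.40 to 8.79. No marker was at 0. The part of these shifts in the Lce values was not tested, and in whole skin fewer cells of a type and less RNA per cell cannot be told apart.

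The second comparison asks what imiquimod did on the KO arrays; the 3 KO pairs gave the spread. Lce3f measured 4.38 ± 0.45 log2 units, Lce3a 4.09 ± 0.61, Lce3c 2.32 ± 0.36 and Lce3b 2.05 ± 0.37, while Lce1f measured 1.19 ± 0.27, Lce1g 1.16 ± 0.11, Lce1a1 0.65 ± 0.16 and Lce1b 0.25 ± 0.11. In limma 0 of the 8 passed, as 0% of all genes did, while 7 of 8 had an unadjusted p under 0.05, all but Lce1b, as had 13.9% of all genes. The smallest adjusted p among them was 0.0775, for Lce1g and for Lce3f.

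In the WT pair, with the spread again from the KO pairs, Lce3f measured 4.12 ± 0.78 log2 units, Lce3a 3.31 ± 1.06, Lce3c 2.79 ± 0.62 and Lce3b 0.62 ± 0.64. Lce1f measured 2.37 ± 0.48, Lce1g 2.07 ± 0.20, Lce1a1 1.41 ± 0.28 and Lce1b 1.13 ± 0.20. In limma 0 of the 8 passed (0% of all genes), and 7 of 8 had an unadjusted p under 0.05, all but Lce3b, as had 10.8% of all genes. The smallest adjusted p was 0.174, that of Lce1g.

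The difference between the genotypes, as WT effect minus KO effect, was positive for the Lce1 genes and mixed for the Lce3 genes. It was 0.76 ± 0.32 log2 units for Lce1a1, 0.88 ± 0.23 for Lce1b, 1.19 ± 0.55 for Lce1f and 0.91 ± 0.23 for Lce1g, all larger in WT. It was -0.78 ± 1.22 for Lce3a, -1.42 ± 0.74 for Lce3b, 0.47 ± 0.72 for Lce3c and -0.26 ± 0.90 for Lce3f. In limma 0 of 8 passed (0% of all genes; smallest adjusted p 0.983 among the 8), and 2 of 8, Lce1b and Lce1g, had an unadjusted p under 0.05, as had 4.12% of all genes. The 95% intervals were wide, from -2.52 to 1.998 for Lce3f and from 0.34 to 1.47 for Lce1g, so alike responses are not shown either. Without the alloferon pair the Lce3c difference was -0.10, and without the KO plain pair the Lce3f difference was 0.43, so the direction of either depends on 1 pair.

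On single arrays with imiquimod, KO_IMQ was above WT_IMQ for 4 of 4 Lce3 genes, by 0.90 to 1.73 log2 units, 2 of them by 1 or more (0.712% of all genes), and below it for 4 of 4 Lce1 genes, with differences of -0.66 to -0.09. KO_IMQ_B was above WT_IMQ for 3 of 4 Lce3 genes (mean difference 0.53) and for 2 of 4 Lce1 genes (mean difference -0.14). Without imiquimod, KO_CTRL differed from WT_CTRL by a mean of -0.23 for Lce3 and 0.21 for Lce1, and KO_CTRL-B by -0.26 and 0.98. KO_CTRL-B itself differed from KO_CTRL by 0.48 to 1.31 in the Lce1 genes and by -1.14 to 1.0001 in the Lce3 genes, and KO_IMQ_B from KO_IMQ by 0.13 to 0.38 and by -0.95 to -0.54.

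The third comparison sets alloferon against its absence in KO skin, 1 array against 1, with no replicate check. Under imiquimod the groups differed from KO_IMQ in opposite directions. KO_IMQ_Allo was below KO_IMQ for 4 of 4 Lce3 genes, at -1.62 log2 units for Lce3a, -1.38 for Lce3b, -1.01 for Lce3c and -0.82 for Lce3f. Of these 3 were lower by 1 or more, as were 0.807% of all genes. It was above KO_IMQ for 4 of 4 Lce1 genes, at 1.14 for Lce1a1, 0.97 for Lce1g, 0.68 for Lce1b and 0.67 for Lce1f, 1 of them by 1 or more (0.676% of all genes). Against KO_IMQ_B the mean difference was -0.52 for Lce3, with Lce3f at 0.13, and 0.62 for Lce1. In that contrast 0 of 4 Lce3 genes were lower by 1 or more and 0 of 4 Lce1 genes higher. These counts thus depend on the KO array compared, and the share over all genes was not counted for KO_IMQ_B. KO_IMQ_B, without alloferon, also lay below KO_IMQ for 4 of 4 Lce3 genes (mean -0.69) and above it for 4 of 4 Lce1 genes (mean 0.24). Tissue markers differed as well. The median of hair follicle markers was 7.56 on KO_IMQ_Allo and 5.04 on KO_IMQ, that of keratinocyte markers 12.10 and 12.41, and that of neutrophil markers 5.68 and 6.63. The part of these marker differences in the Lce values was not tested.

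Without imiquimod KO_Allo was above KO_CTRL in both groups. The differences were 2.003 log2 units for Lce1f, 1.25 for Lce1a1, 1.23 for Lce1g and 0.95 for Lce1b, and 1.62 for Lce3f, 1.09 for Lce3a, 0.64 for Lce3c and 0.52 for Lce3b. Of the Lce1 genes 3 of 4 and of the Lce3 genes 2 of 4 were higher by 1 or more, where 1.6% of all genes were. Against KO_CTRL-B the mean difference was 0.99 for Lce3, with Lce3b at -0.48, and 0.59 for Lce1. In that contrast 0 of 4 Lce1 and 2 of 4 Lce3 genes were higher by 1 or more, and the share over all genes was not counted. The imiquimod difference within the alloferon pair, the smallest of the 4 pairs for Lce3a, Lce3c, Lce3f, Lce1b, Lce1f and Lce1g, was measured against KO_Allo, the highest array without imiquimod for these 6 genes. The median of hair follicle markers was 9.43 on KO_Allo and 8.28 on KO_CTRL, and that of keratinocyte markers 12.01 and 10.97. The median of skeletal muscle markers was 8.61 on KO_Allo and 11.15 on KO_CTRL, and that of adipocyte markers 7.34 and 9.08. The part of these differences was not tested.

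Of the other Lce genes of the mouse, 10 of 11 had a probe set of their own, and 6 rose in limma with imiquimod over the 4 pairs, none fell, with a median of 1.16 log2 units against -0.01 over all genes. In limma, 1.9% of all genes rose and 1.19% fell. Lce3e and Lce3d rose by 3.85 ± 0.41 and 2.45 ± 0.30 log2 units. Lce1e rose by 2.07 ± 0.34, Lce1k by 1.71 ± 0.15, Lce1i by 0.89 ± 0.10 and Lce6a by 0.85 ± 0.11. Lce1e and, by a narrow margin, Lce1k therefore moved more than Lce3b, and the 2 groups were not cleanly split. Over all 6 Lce3 genes the mean differences ran from 1.69 to 4.31, and over all 11 Lce1 genes from 0.29 to 2.07.

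Along the chromosome, Lce1e, Lce1f, Lce1g, Lce1h, Lce1i and Lce1k measured 0.89 to 2.07, with Lce1f and Lce1h not passing. Lce1a1, Lce1b and Lce1a2 at one end of the cluster and Lce1l and Lce1m on the other side measured 0.29 to 0.84. Lce6a, next to Lce1a1, measured 0.85. This division was not planned, and its edge is narrow: Lce1i measured 0.89 ± 0.10 and Lce1a1 0.84 ± 0.18. The 6 Lce3 genes follow one another without another protein-coding gene between them. Between Lce1l and Lce3a lies 2310050C09Rik, at 0.32 ± 0.21 (adjusted p = 0.468 in limma), and on the other side of Lce3f lies Crct1, which rose by 0.69 ± 0.09.

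**Figure D4:**
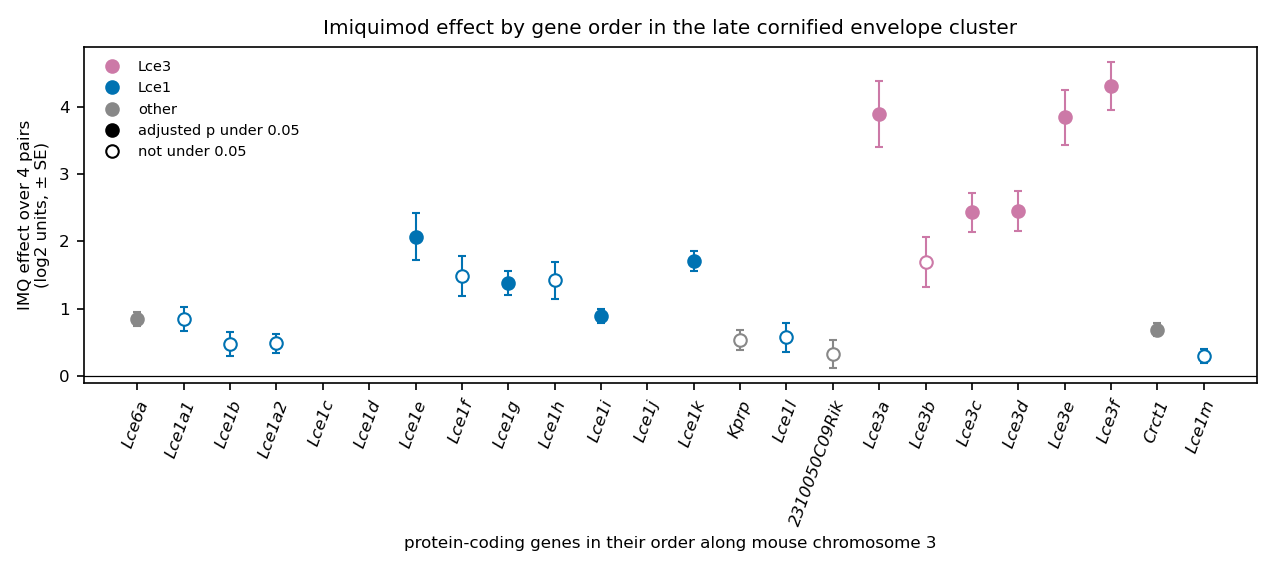
Imiquimod effect over the 4 pairs (log2 units, ± SE) for the protein-coding genes from Lce6a to Lce1m in their order along mouse chromosome 3; filled points had an adjusted p under 0.05 in limma, and Lce1c, Lce1d and Lce1j have no point because no probe set carries their symbol alone. The 6 Lce3 genes form a block from 1.69 to 4.31, flanked by values of 0.32 and 0.69.

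The probe set shared by Lce1c and Lce1k read 9.95 to 11.29 with imiquimod and 9.45 to 10.85 without, and differed by a mean of 0.55 log2 units. That shared by Lce1d and Lce1k read 6.12 to 7.13 with imiquimod and 4.26 to 6.87 without, and differed by 1.11. Both were highest on KO_IMQ_Allo, and both groups of arrays overlapped. Lce1m has 2 probe sets that disagree. The brighter differed by 0.29 with imiquimod, and the other by -1.77, with a range of 5.77 to 7.96 with imiquimod and 7.98 to 9.18 without. Lce genes are close copies of one another, and whether signal of one gene reaches the probe set of another was not tested.

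Among other precursors of the cornified envelope and genes of the same complex, 28 of 32 were measured, of which 12 rose, 3 fell and 13 did not pass, with a median of 0.66 log2 units. The small proline-rich proteins, envelope precursors known for induction in injured skin, led the rises: Sprr2d rose by 5.41, Sprr2e by 4.24, Sprr1b by 3.95 and Sprr2b by 3.84, and repetin (Rptn) by 4.19. Tchh, a protein of the inner root sheath of hair, changed by -3.64. Loricrin (Lor), the main envelope protein, measured 0.23 ± 0.21 (adjusted p = 0.617 in limma), involucrin (Ivl) 0.42 ± 0.14 (adjusted p = 0.179 in limma) and filaggrin (Flg) 0.88 ± 0.20 (adjusted p = 0.0655 in limma). Among the small proline-rich genes Sprr2k (1.14), Sprr1a (0.46), Sprr3 (0.05) and Sprr4 (-0.61) did not pass.

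Of 18 genes of envelope cross-linking and scaffold 5 rose and none fell, with a median of 0.44. They were Casp14, a protease of filaggrin breakdown (1.33 ± 0.20), Asprv1, which cleaves profilaggrin (0.98 ± 0.15), the transglutaminase Tgm5 (0.81 ± 0.12), the desmosomal cadherin Dsc1 (0.75 ± 0.13) and corneodesmosin, Cdsn (0.69 ± 0.11). The largest differences of the list, -4.28 ± 0.88 for Krt77 and 2.06 ± 0.47 for Tgm3, did not pass (adjusted p = 0.0566 and 0.070 in limma). Of 16 genes of wound-type epidermis 12 rose and none fell, with a median of 3.40, led by S100a8 (5.34 ± 0.47), Csta3 (5.02 ± 0.89) and Serpinb3a (4.79 ± 0.33). This list was drawn up with earlier results of these arrays known, so its direction is no independent evidence.

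Regulators of epidermal differentiation rose in 5 of 26 measured genes and fell in 1, with a median of 0.31. Ehf, an ETS factor of epithelia, rose by 2.09 ± 0.22, the grainyhead factor Grhl3 by 1.11 ± 0.10, Nfkbiz by 0.61 ± 0.10, Cebpb by 0.56 ± 0.11 and Klf4 by 0.51 ± 0.09, while Gata3 changed by -0.82 ± 0.13. Of 11 measured cytokine ligands and receptors that act on keratinocytes 2 rose, the interleukin-10 family receptor chain Il10rb by 0.81 ± 0.15 and the oncostatin M receptor Osmr by 0.54 ± 0.10, and none fell.

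Likeness was measured as Pearson's r over the 8 arrays with the mean of each group, among 2205 other genes. These varied by 1 log2 unit or more, and their highest array lay above the median level of all genes. The arrays fall into 2 sets by imiquimod and share their RNA source, so r is a description only. Nearest to the Lce1 mean were filaggrin (Flg, r = 0.974), Ctsa (0.967), Lce1e (0.966), Cpa4 (0.962) and Tmem95 (0.961). Flg differed with imiquimod by 0.35, 1.13 and 0.55 log2 units in the KO_Allo, KO plain and KO B pairs. In the WT pair it differed by 1.499, the highest, as for the Lce1 members. The WT pair was also the highest for Ctsa, Lce1e and Tmem95, but not for Cpa4 (1.51, against 1.68 in the KO plain pair). Nearest to the Lce3 mean were Lce3d (r = 0.996), the beta-defensins Defb14 (0.991) and Defb3 (0.990), S100a9, a subunit of calprotectin (0.988), and the desmosomal cadherin Dsg1b (0.988). Defb3 differed by 1.90, 4.73 and 4.37 in the KO_Allo, KO plain and KO B pairs, against 3.13 in the WT pair. The 5 genes nearest to each group were 10 different genes. Both lists were picked by likeness on these same arrays, so neither this nor the pair pattern of a listed gene is independent evidence.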

How the data were processed

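The deposited values are log2 expression levels of 41345 probe sets, to which the authors applied RMA (robust multichip averaging). The submitters' processing notes list Affymetrix Power Tools and, with no role, R 3.3.2. RMA removes background, gives all arrays 1 distribution and combines probes into sets, so a shift common to most genes is lost. By the platform annotation 23521 probe sets had 1 symbol, 1814 several and 16010 none. A gene was represented by its probe set with the highest mean, which gave 22180 genes.

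Tests used limma 3.58.1 in R 4.3.3 (lmFit, eBayes) on the log2 values, with Benjamini-Hochberg adjustment over all genes and calls at an adjusted p under 0.05. The first fit had a level per pair and 1 IMQ term (3 residual degrees of freedom). The second had separate IMQ terms for WT and KO (2 residual degrees of freedom). The first fit was tested on simulated data in which a changed gene had the same imiquimod shift in every pair. The measured shifts vary among pairs, so that test does not vouch for the calls here. Since nothing says that arrays hold separate animals, the p-values reflect only how far these arrays vary, and that may be technical. Errors are standard errors unless stated otherwise.

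All members are named. From each list the called genes were named, at most 6, those with the largest differences, and for likeness the 5 nearest genes to each group. Lor, Ivl, Flg, Krt77, Tgm3, 2310050C09Rik and Crct1 were named after their values were seen. Members and lists were chosen with earlier results of these data known. Promoter sequences came from RefSeq (GRCm38.p6), which held 9 of the 10 symbols. Alternatives were another prior, probe set choice, a filter on dim genes, no pair levels and leaving out arrays.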

Additional observations from a re-analysis of the deposited data

Results flagged for a closer look

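One of 16 sets of 4 arrays (each of the 8 genes, with and without imiquimod) held an array far from the others. For Lce3f with imiquimod, KO_IMQ read 8.98 while the other 3 arrays lay between 8.03 and 8.16. The gap was 0.864 of the whole range, above Dixon's critical value for 4 values. Chance flags about 1 in 20 such sets. Without the KO plain pair the Lce3f effect over the remaining pairs was 3.83 log2 units. The cause was not tested.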

How the results depend on the processing

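The Lce3 minus Lce1 gap kept its direction in all alternatives tried, at 1.72 to 2.57 log2 units, and each of the 8 genes stayed higher with imiquimod over the pairs in every setting that held it. The calls were less stable. Over 4 pairs, 4 members and 685 genes passed in limma. With all probe sets tested singly 0 members and 0 genes passed, and without the replicate block, the level per pair, 454 genes passed, with 4 members. Leaving out 1 array gave 0 to 5 members and 0 to 1307 genes. Without the WT plain and KO plain pairs, an alternative chosen after seeing the data, 1 member and 72 genes passed, in KO also 1 and 72. With a trended robust prior, 3 members passed over 4 pairs, Lce3a being lost, with 806 genes, and KO had 1 member and 50 genes, against 0 and 0, and WT had 1 gene, against 0. Leaving out 1 array gave 0 to 4 members and 0 to 299 genes in KO, and 0 to 2 members and 0 to 41 genes in WT. The WT minus KO difference ran from -0.10 to 0.77 for Lce3c and from -0.79 to 0.43 for Lce3f, with Lce3c negative without KO_IMQ_Allo or KO_Allo and Lce3f positive without KO_IMQ or KO_CTRL. Pairs come from the labels, and an array left out also takes its partner out of the estimate. The causes of the other changes were not tested. RMA compresses the differences of dim genes, and Lce1a1 is the dimmest of the 8.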
